A study of Mus musculus with 19 samples.

Results

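miR-122 was followed across the livers of mice given dibenz[a,h]anthracene (DB[a,h]A), a polycyclic aromatic hydrocarbon that binds the aryl hydrocarbon receptor and is metabolised to products that react with DNA. The microRNA (miRNA) was identified by its exact name on a one-colour Agilent array, mmu-miR-122, and was 1 of 696 miRNAs on the array and 1 of the 208 that were detected on enough arrays to be tested. All mice were males of the MutaMouse strain, which carries a bacterial reporter gene for scoring mutations in every cell, and were 10 weeks old. DB[a,h]A in olive oil was given by daily gavage for 28 days, and the liver was removed 3 days after the last dose. The control group received olive oil alone (0 mg/kg/day, 5 arrays), and the groups called low, middle and high dose received 6.25 mg/kg/day (5 arrays), 12.5 mg/kg/day (4 arrays) and 25 mg/kg/day (5 arrays). Each array held RNA of 1 mouse, from part of the liver, so every value is a bulk value in which fewer hepatocytes and less miR-122 per hepatocyte cannot be told apart.

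miR-122 is made almost only in hepatocytes, where it is the best known of the liver miRNAs. It is cut from a longer transcript whose production depends on liver-enriched transcription factors such as HNF4A, and, loaded into Argonaute, it represses messenger RNAs that carry its seed match. In mice its loss raises many such messengers, disturbs cholesterol and fat handling, and leads with age to inflammation, fibrosis and tumours of the liver. Because hepatocytes hold so much of it, its release into the blood is used as a sign of liver injury.

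The liver level of miR-122 did not differ detectably between any dose and the control. A level is given as log2 of the signal of its brighter probe divided by the 75th percentile over the detected probes of that array. The control arrays (replicates 1, 10, 17, 19 and 22) had levels of 6.82, 6.43, 6.52, 6.49 and 6.41. The low dose arrays (replicates 3, 11, 12, 18 and 24) had levels of 6.83, 6.51, 6.61, 6.63 and 6.65. The middle dose arrays (replicates 5, 6, 14 and 20) had levels of 6.76, 6.90, 6.63 and 6.60, and the high dose arrays (replicates 7, 8, 15, 16 and 23) had 6.67, 6.35, 6.87, 6.98 and 6.56. All groups overlapped. Few dosed arrays lay above every control, 1 of 5 at the low dose, 1 of 4 at the middle dose and 2 of 5 in the high dose group, and 1 high dose array, replicate 8, lay below every control and was the lowest of all 19. Control replicate 1 set this count, as the other controls reached at most 6.52. Of the dosed arrays only low dose replicate 11 (6.51) and high dose replicate 8 (6.35) did not exceed that value. The low place of high dose replicate 8 held for the brighter probe only. By the second, dimmer probe of miR-122 it had a level of 5.60, inside the control range of 5.43 to 5.88. On that array 4 of the 10 spots of the brighter probe were left out as outliers.

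**Figure D1:**
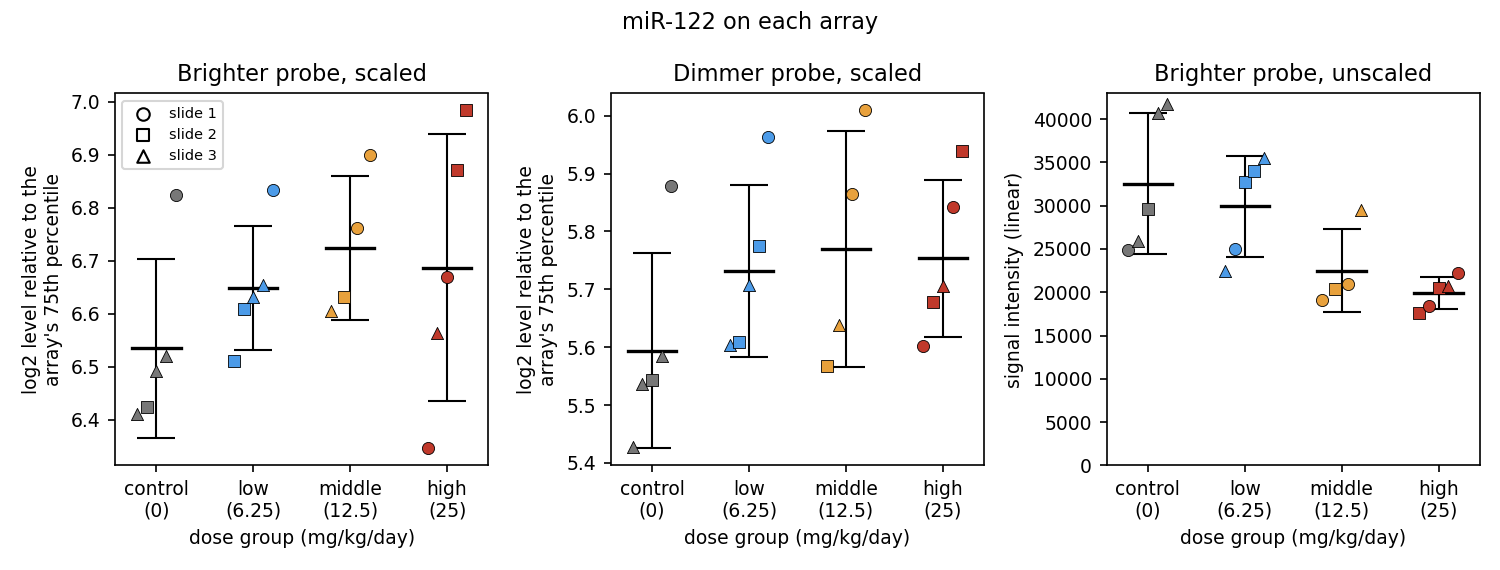
miR-122 on each of the 19 arrays by dose group (mg/kg/day). The left and centre panels give log2 levels of the brighter and dimmer probe after division by the array's 75th percentile, the right panel the unscaled signal intensity of the brighter probe. Points are arrays with the slide as their shape, lines are group means and bars are SD. Scaled levels of the 4 groups overlap, while unscaled signals of all 5 high dose arrays, at most 22189, lie below those of all controls, at least 24864.

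The mean level was 6.53 ± 0.17 in controls, 6.65 ± 0.12 at the low dose, 6.72 ± 0.14 at the middle dose and 6.69 ± 0.25 in the high dose group (SD, n = 5, 5, 4 and 5). Groups were compared with limma over all 208 tested miRNAs, with the slide as a block and Benjamini-Hochberg adjustment. At the low dose miR-122 differed from control by 0.10 on the log2 scale, a fold of 1.07 with a 95% interval of 0.90 to 1.27 (adjusted p = 0.890), in a comparison that called 4.33% of the tested miRNAs. At the middle dose the difference was 0.15, a fold of 1.11 with an interval of 0.92 to 1.33 (adjusted p = 0.474), where 5.77% were called. At the high dose it was 0.11, a fold of 1.08 with an interval of 0.90 to 1.28 (adjusted p = 0.647), where 2.4% were called. None of these 3 differences passed the threshold of 0.05 on the adjusted p. The intervals held changes of up to about the size of the 1.33-fold upper bound at the middle dose, and the test does not show that the level stayed the same.

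With the scaling used, the differences of miR-122 lay close to those of a typical miRNA. The median difference over the 208 tested miRNAs was 0.07, 0.11 and 0.06 on the log2 scale at the low, middle and high dose, and miR-122 took place 93, 90 and 87 of 208 in order of fold. All miRNAs called in these 3 comparisons were higher in dosed mice with this scaling, but the direction of the calls over all miRNAs depended on it. With the percentile taken over all probes, 35 of 36 calls at the middle dose were lower than control. That percentile is a dim reference, as only 220 of the 1937 probes were detected on all arrays. Without scaling, 69 of 70 at the high dose were lower, and relative to the median detected miRNA 45 of 46, 96 of 97 and 71 of 72 were lower in order of dose. In this last setting the median was subtracted after dim values had been raised to a floor of -4.79. Tested miRNAs at the floor on every array, such as miR-18a and miR-32, then shift by the median alone and show no measured change. How many of these calls were such miRNAs was not counted. With the labelling spike-ins, 25 of 25 calls at the high dose were higher.

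The means ran in the order control, low dose, high dose, middle dose, and no neighbours in that order differed beyond their spread. Middle minus low dose was 0.05 (95% interval -0.21 to 0.31), high minus low dose was 0.012 (-0.23 to 0.26) and high minus middle dose was -0.04 (-0.29 to 0.22), each with an adjusted p of 1.00 by limma. Those comparisons called 0.481%, 0.481% and 0% of the tested miRNAs, and in the last of them 14 miRNAs had an unadjusted p under 0.05. Exact permutation tests of the 6 pairs of groups, which used only the arrays compared and ignored the slides, gave 0.24, 0.11 and 0.29 for the low, middle and high dose against control, each 0.571 after adjustment over the 6 pairs.

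Taking all dosed arrays together left the outcome as it was. The mean of the 3 doses minus control was 0.12 on the log2 scale (95% interval -0.09 to 0.32; limma adjusted p = 0.503), in a comparison that called 8.17% of the miRNAs. An F test across all 4 groups gave an adjusted p of 0.836, and it called 0.962%. The linear trend was 0.0036 on the log2 scale per mg/kg/day (95% interval -0.0057 to 0.013; limma adjusted p = 0.708), and it also called 0.962%. With 1 array left out at a time, the mean of doses minus control ran from 0.056 (without control replicate 10) to 0.20 (without control replicate 1). The trend ran from 0.0006 (without high dose replicate 16) to 0.0077 (without high dose replicate 8), and neither passed without any array.

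The arrays lay on 3 slides, each with all 4 groups, but the rows of a slide were not balanced over the groups. On slides 1 and 2 all control and low dose arrays lay in row 1 and all middle and high dose arrays in row 2. On slide 3 the high dose array also lay in row 2, and the controls lay in both rows. A difference of the middle or high dose from control cannot be told apart from one between rows on slides 1 and 2. Slide 1 held a single control, replicate 1, and its level of 6.82 was the highest of the 5 controls, whose other members reached at most 6.52. On that slide the difference from control was 0.0099 at the low dose, 0.0056 at the middle dose and -0.32 in the high dose group. On slide 2 these differences were 0.14, 0.21 and 0.50, and on slide 3 they were 0.17, 0.13 and 0.09. The low and middle dose means were thus above or nearly level with control on every slide, whereas the high dose lay below control on slide 1 and above it on slides 2 and 3.

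Slides held too few arrays for firm tests. Within slides the low dose exceeded control by 0.13 (exact permutation p = 0.0167, the smallest the 60 arrangements allow; 0.10 after adjustment over 6 pairs). The middle dose exceeded it by 0.11 (exact permutation p = 0.125) and the high dose by 0.09 (exact permutation p = 0.639). Without control replicate 1 the limma differences were 0.17, 0.24 and 0.19 with adjusted p of 0.505, 0.256 and 0.370, so 1 array moved all of them by more than 1.5 times without changing a call. At the high dose the difference was 0.21 without replicate 8 (adjusted p = 0.144) and 0.03 without replicate 16 (adjusted p = 1.00).

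The sign of the high dose difference depended on how the arrays were brought to a common scale. With the scaling kept, it also changed when a slide was left out or array signal was a covariate. Mean array signal was lower in each dose group than in the controls, though untested here: the 75th percentile of signal averaged 357 ± 111 in controls, 301 ± 74.6 at the low dose, 215 ± 60.7 at the middle dose and 195 ± 37.4 in the high dose group (SD, n = 5, 5, 4 and 5). The unscaled signal of the brighter miR-122 probe averaged 32560 ± 8095, 29916 ± 5801, 22486 ± 4777 and 19873 ± 1845 in the same order (SD, same n). RNA spiked in before labelling had a mean log2 signal of 12.36 ± 0.24 in controls and 12.25 ± 0.15, 11.89 ± 0.24 and 11.52 ± 0.17 at rising dose (SD, same n). The part of array brightness in the miR-122 values was not tested apart from the alternatives that follow.

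With no scaling between arrays, miR-122 was lower at the high dose, by -0.60 on the log2 scale (limma adjusted p = 0.026). In the authors' own value table it was higher there, by 0.30 (limma adjusted p = 0.029), with group means of 13.96 ± 0.12 in controls, 14.03 ± 0.07 at the low dose, 14.18 ± 0.06 at the middle dose and 14.26 ± 0.13 in the high dose group (SD, n = 5, 5, 4 and 5). These table values are log2-like and their columns have medians of 5.04 to 5.06, but how they were normalized is not given here. Divided by the labelling spike-ins, the high dose difference was 0.17, and relative to the median detected miRNA it was -0.14, with neither passing. Leaving out slide 1 gave 0.32 (adjusted p = 0.039) and leaving out slide 2 gave -0.11 (adjusted p = 0.726).

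**Figure D2:**
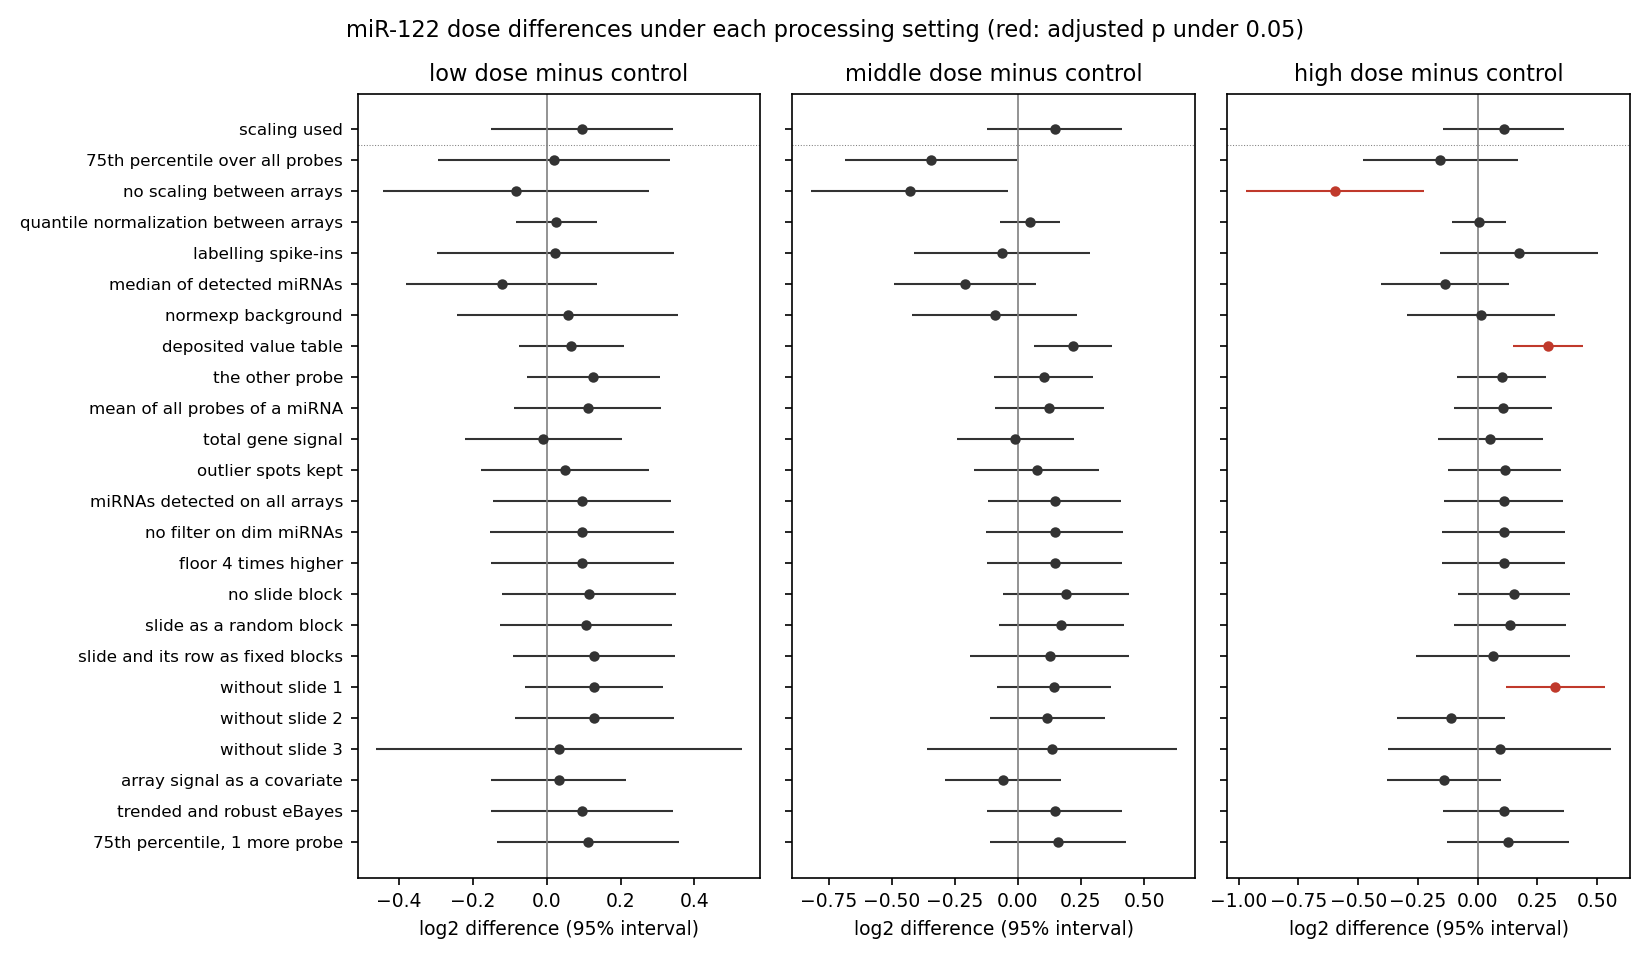
Difference of miR-122 from control at the low, middle and high dose (log2, with 95% intervals from limma) under each processing setting. The top line is the scaling used in the text, and red points have an adjusted p under 0.05. High dose values run from -0.60 without scaling to 0.32 without slide 1, and the low and middle dose have no red point.

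Across the 19 arrays the scaled miR-122 level was higher where the array was dimmer. Against the log2 of the array's 75th percentile, Pearson's r was -0.735 (permutation p = 0.00041) and Spearman's rho was -0.765 (permutation p = 0.00019), or 0.00164 and 0.00076 after adjustment over the 4 relations computed. Within slides 1, 2 and 3, r was -0.502, -0.921 and -0.619 (exact permutation p = 0.351, 0.0042 and 0.140), and without the 2 arrays farthest from the median it was -0.700. The level is the signal divided by that same percentile, so part of the relation is built in, and the permutation p values do not allow for it. They also pool the dose groups, although mean array signal was lower and the mean level higher in each dose group than in controls. With the dimmer miR-122 probe r was -0.669 (permutation p = 0.0019). With the percentile taken over all probes in place of the detected ones, r was -0.272 (permutation p = 0.269), and the relation no longer passed. That percentile is taken mostly over probes not detected on all arrays, and it is a small divisor. The mean log2 value of miR-122 was 13.22 after division by it and 14.64 unscaled. How well this percentile tracks array brightness was not tested.

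**Figure D3:**
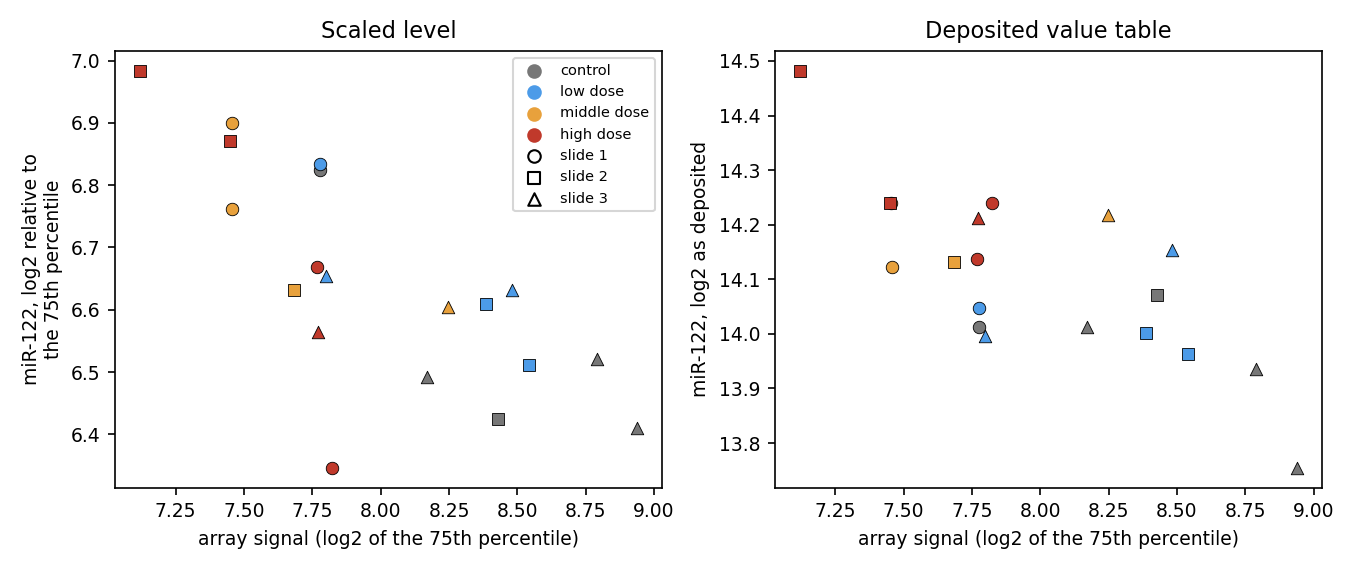
miR-122 against array brightness, the log2 of the 75th percentile of signal, for the 19 arrays. The left panel gives the scaled level (r = -0.735) and the right panel the authors' deposited value. Colour is the dose group and shape is the slide. In both panels the dimmest array, high dose replicate 16, has the highest miR-122 value (6.98 and 14.48).

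Both miR-122 probes were far above background on every array. Each was printed in 10 spots per array, and 190 of 190 spots of either probe were well above background, with 0 saturated. Spot signals ran from 16371 to 44982 for the brighter probe and from 6903 to 22605 for the dimmer one, against a local background of 25.5 to 34.75 around them. The spots of one array agreed to a median coefficient of variation of 7.99% for the brighter and 5.13% for the dimmer probe.

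Over all slides the dimmer probe gave dose differences of similar size, but within single slides the probes differed at the high dose. Its mean level was 5.59 ± 0.17 in controls, 5.73 ± 0.15 at the low dose, 5.77 ± 0.20 at the middle dose and 5.75 ± 0.14 in the high dose group (SD, n = 5, 5, 4 and 5). By limma, dose minus control was 0.13, 0.10 and 0.10 at the low, middle and high dose (adjusted p = 0.832, 0.670 and 0.686). On slides 1, 2 and 3 the high dose minus control was -0.16, 0.26 and 0.19 with the dimmer probe. With the brighter probe it was -0.32, 0.50 and 0.09. On 18 arrays the brighter probe had 1.68 to 2.09 times the signal of the dimmer one. On high dose replicate 16 this ratio was 2.47, the highest of the 19.

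That array also differed in its scan. The scanner reads each array at a high and a low gain, and bright spots take their value from the low-gain image after multiplication by a factor, which was 19.9 to 20.7 on 18 arrays. On high dose replicate 16 the factor was 1, the saturation value was 65529 in place of at least 1302250, and no spot was read at low gain. Spots of the brighter probe were read at low gain in 10 of 10 cases on all 5 controls, in 9 or 10 on the low dose arrays, in 4, 7, 7 and 10 on the middle dose arrays and in 9, 3, 7, 0 and 7 on the high dose arrays. The gain at which miR-122 was read was thus not the same across groups, and its part in the dose differences was not tested apart from the dimmer probe. The dimmer probe, read at high gain in all but 15 of 190 spots, gave 0.10 at the high dose both with and without that array.

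**Figure D4:**
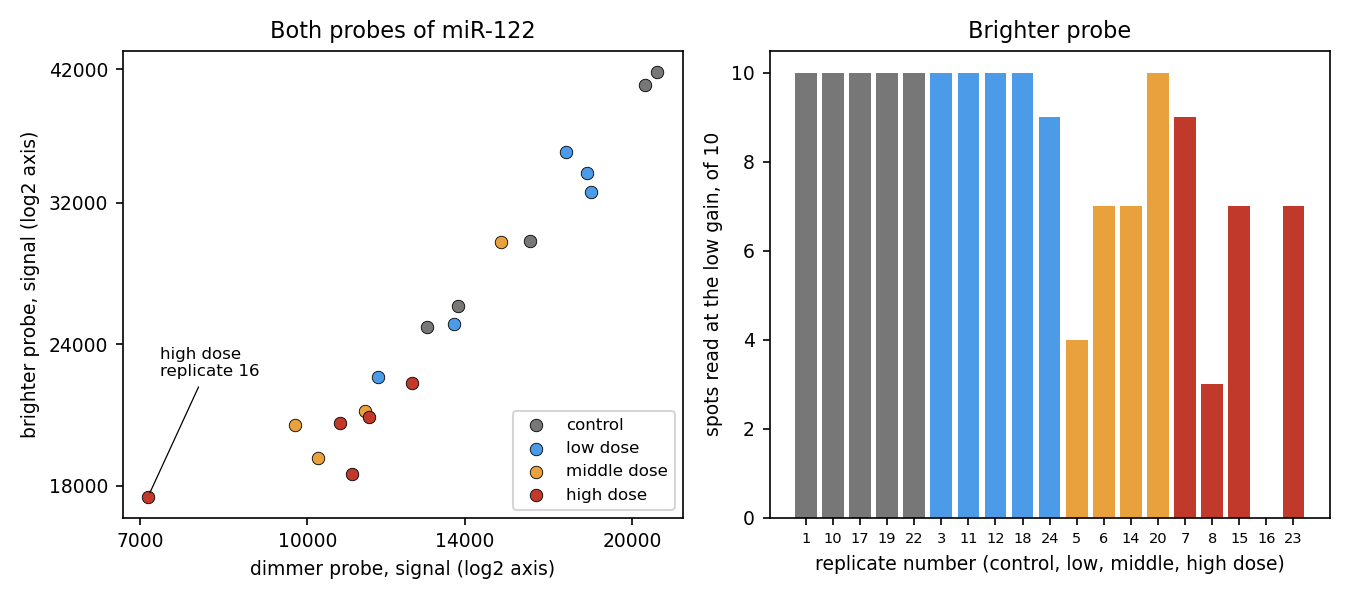
The left panel plots the signal of the brighter against the dimmer miR-122 probe on the 19 arrays (log2 axes). The right panel gives the number of the 10 spots of the brighter probe that were read at low gain on each array. The pair of probes rises together, high dose replicate 16 stands off the line with the lowest dimmer probe signal of 7120, and its count of low-gain spots is 0.

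miR-122 was among the brightest features of the array in every liver. It was the brightest miRNA on 13 of 19 arrays and took second place on 6, behind miR-1937b, an entry of the array's miRBase release since regarded as a fragment of transfer RNA. Its signal was 0.764 to 1.253 times that of miR-1937b. miR-122 came second on 2 arrays of controls, 1 each of the low and middle dose, and 2 of the high dose. Brightness also depends on the probe, so these places rank spots and not molecules.

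Its share of the summed signal of the 208 tested miRNAs needs no scaling between arrays. It was 23.1 ± 1.13% in controls, 23.8 ± 1.80% at the low dose, 23.9 ± 0.705% at the middle dose and 23.9 ± 1.86% in the high dose group (SD, n = 5, 5, 4 and 5), and it lay between 20.9% and 25.8% on all arrays. Dose minus control was 0.67, 0.77 and 0.80 percentage points, with exact permutation p of 0.492, 0.270 and 0.460, each 0.492 after adjustment over the 3 doses. With 1 array left out, the low dose difference ran from 0.18 (without low dose replicate 18) to 1.39 points (without low dose replicate 24). The middle dose difference ran from 0.36 (without control replicate 19) to 1.07 (without control replicate 10), and that of the high dose from 0.33 (without high dose replicate 15) to 1.48 (without high dose replicate 8). None of them passed. By brightness miR-122 was thus a dominant miRNA in all groups, with miR-1937b close to it.

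The other miRNAs of the liver parenchyma were set beside miR-122. This list held 17 names, and 14 of them were on the array: 11 were tested, 10 had signal on every array and 2 on no array. Of the 11, 0 were called by limma at the low, middle or high dose, and the median differences were -0.0018, -0.13 and -0.059 on the log2 scale. At an unadjusted p under 0.05 there were 1, 3 and 5, of which 0, 3 and 4 were lower than control, beside 28, 52 and 53 of all 208 tested miRNAs in either direction. How many of those 28, 52 and 53 were lower was not counted. Whatever the p, 5, 2 and 5 of the 11 had a difference above 0, beside 137, 144 and 127 of all 208, with the scaling used. The summed level of the list ran from 4.18 to 4.37 at the low dose, 4.14 to 4.27 at the middle dose and 4.03 to 4.37 at the high dose, against 4.16 to 4.45 in controls. The markers of the labelled tissue were thus present in every group.

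A ratio of miR-122 to another miRNA on the same array is free of the scaling. It was tested for the 4 brightest members of that list, miR-192 (enriched in liver and gut and clustered with miR-194), miR-148a (abundant in mature hepatocytes), miR-101b (which targets the histone methyltransferase Ezh2) and miR-193, in 12 exact permutation tests adjusted together. At the low dose the log2 ratio of miR-122 to miR-101b was 5.77 ± 0.18 against 5.55 ± 0.11 in controls (SD, n = 5 each), with 3 of 5 arrays above all controls (exact permutation p = 0.0476, adjusted 0.0952). At the middle dose it was 6.02 ± 0.20 (SD, n = 4), with all 4 arrays above all controls (exact permutation p = 0.0159, adjusted 0.0476). At the high dose it was 5.98 ± 0.32 (SD, n = 5), with all 5 arrays above all controls (exact permutation p = 0.0079, adjusted 0.0476). Relative to miR-101b, miR-122 was thus higher at the middle and high dose by this test. All these ratio tests were chosen after values had been seen, and the adjustment covers only the 12 of them.

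The ratio to miR-148a moved in the same direction. It was 5.28 ± 0.05 at the middle dose (SD, n = 4) against 4.98 ± 0.09 in controls (SD, n = 5), with all 4 arrays above all controls (exact permutation p = 0.0159, adjusted 0.0476). At the high dose it was 5.28 ± 0.22 (SD, n = 5), with 3 of 5 arrays above (exact permutation p = 0.0238, adjusted 0.0571). The ratio to miR-192 rose by 0.17 at the middle dose (exact permutation p = 0.0159, adjusted 0.0476), with 4 of 4 arrays above all controls, and differed by 0.06 at the high dose (exact permutation p = 0.151). The ratio to miR-193 differed by 0.0093 and -0.12 at the middle and high dose (exact permutation p = 0.873 and 0.190).

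These ratios show unequal change between miRNAs and not which of the pair moved. By limma miR-101b differed from control by -0.30 and -0.29 at the middle and high dose (adjusted p = 0.111 and 0.103), and miR-148a by -0.15 and -0.18 (adjusted p = 0.189 and 0.103). Permuted within slides, the 4 ratios that passed all had an adjusted p of 0.10. Each raw p, 0.0417 at the middle dose and 0.0278 for miR-101b at the high dose, was the smallest the arrangements allow. Leaving out any 1 control or middle dose array likewise ended all 4 calls (adjusted p of 0.0544 to 0.0857). Fewer arrangements raise the smallest p of the comparisons that lose an array. Without a middle dose array the high dose ratio to miR-101b kept its exact permutation p of 0.0079, and only its adjusted p rose. With the dimmer miR-122 probe, the adjusted p for miR-101b was 0.0635 (middle dose) and 0.0476 (high dose), for miR-148a 0.0762 (middle dose) and 0.0476 (high dose), and for miR-192 0.136 at the middle dose. In the authors' deposited value table the ratios to miR-148a and miR-101b both had an adjusted p of 0.0476 by exact permutation at each of the 3 doses, and that to miR-192 had 0.0544 at the middle dose. The middle and high dose arrays were also dimmer on average, and miR-122 and miR-101b lie far apart in brightness. The part of array brightness in the ratios was not tested.

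Within groups, miR-192 was among the miRNAs that varied most like miR-122, and the first place depended on the probe and the scaling. With group and slide means removed, miR-122 was compared with the other miRNAs detected on all 19 arrays, as a description. Pearson's r was 0.95 for miR-192, 0.94 for miR-22 (abundant in many tissues, liver and heart among them), 0.91 for miR-28, 0.89 for miR-140 and 0.88 for miR-30e*. The median over these miRNAs was 0.501, 118 of them had an r above 0, and all miRNAs of an array share its labelling and scaling. With the dimmer miR-122 probe the same 5 had r of 0.73, 0.70, 0.59, 0.62 and 0.76, and miR-361 came first with 0.85. Without scaling let-7g came first with 0.97 (both picked out after their values were seen), and miR-192 had 0.97 as well. With the scaling used the least alike were miR-143, marker of smooth muscle and stellate cells, with -0.48, miR-2135_v15.0 with -0.38 and miR-2140_v15.0 with -0.31. These signs depended on the scaling: without it the r of these 3 were 0.53, 0.72 and 0.63, and no miRNA had an r below 0.

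miR-192 and miR-22 are shown by sequence because they head this order with the scaling used, and to show that neither arm of one shares a seed with an arm of the other. The array names give no arm, so both mature arms in the RefSeq table (GRCm38.p6) are printed 5′ to 3′ with the seed, bases 2 to 8, in capitals; the 4 seeds are all different.
mmu-miR-192-5p: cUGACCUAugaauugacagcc
mmu-miR-192-3p: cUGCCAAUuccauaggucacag
mmu-miR-22-5p: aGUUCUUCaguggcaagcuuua
mmu-miR-22-3p: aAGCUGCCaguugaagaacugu

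**Figure D5:**
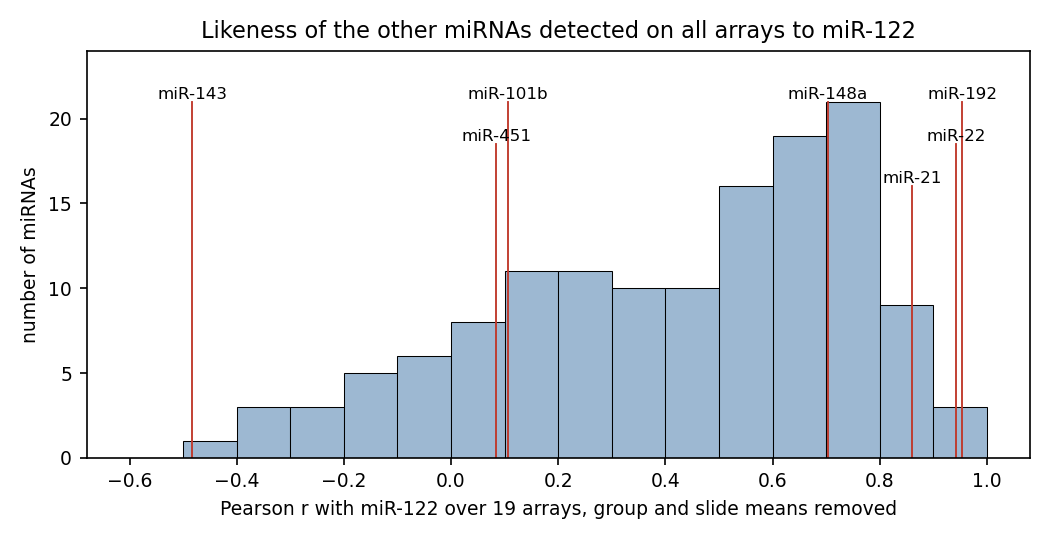
Number of miRNAs by their Pearson r with miR-122 over 19 arrays, after group and slide means were removed, with the scaling used in the text. Red lines mark named miRNAs: miR-192 (0.95) and miR-22 (0.94) lie at the upper end, miR-143 (-0.48) at the lower end, and the median is 0.501.

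After group and slide means were removed, miR-122 varied about as much as a typical miRNA. Its residual SD was 0.181 on the log2 scale, place 70 of 137 from the smallest, against a median of 0.175. miR-192 and miR-22 themselves did not pass at any dose. miR-192 differed from control by 0.08, -0.0087 and 0.05, and miR-22 by -0.05, -0.07 and -0.15, in order of dose, by limma (adjusted p of at least 0.565). The liver's other very bright miRNAs did not pass either: miR-21, often raised in injured liver, differed by -0.08, 0.05 and -0.015, and miR-720, another entry since regarded as a transfer RNA fragment, by 0.10, 0.06 and 0.11.

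Markers of other liver cells were read for the makeup of the samples. Of 4 tested leukocyte miRNAs, miR-223, of myeloid cells, was the 1 called higher at each dose (log2 0.37, 0.48 and 0.39 in order of dose, limma adjusted p = 0.0382, 0.0198 and 0.0482; picked out after its values were seen). The summed level of that list ran from 0.57 to 0.66 at the low dose, 0.40 to 0.75 at the middle dose and 0.28 to 0.78 at the high dose, against 0.07 to 0.57 in controls. Of 2 endothelial miRNAs, 1 was called at the low dose: miR-126-3p rose by 0.29 (limma adjusted p = 0.0268), and the summed level ran from 1.58 to 1.70 at the low dose against 1.06 to 1.52 in controls. These values hold for the scaling used. With it the median of the miRNAs detected on all arrays, miR-122 apart, averaged -2.40 in controls and -2.20, -2.04 and -2.17 in order of dose. The marker differences under other scalings are not given here. Erythroid (2 tested), stellate and smooth muscle (5), bile duct (6) and muscle (2) lists had 0 called by limma at any dose. At an unadjusted p under 0.05 these held 0, 2 stellate and smooth muscle plus 1 bile duct, and 1 bile duct miRNA in order of dose, beside the 28, 52 and 53 of 208 given above. Of 4 pancreas miRNAs, all 4 were detected on no array. The part of cell makeup in the miR-122 levels was not tested.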

How the data were processed

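The authors' scanner files hold 1 signal intensity per spot, read and cleared of local background by Agilent Feature Extraction (version 10.7.3.1) but not scaled between arrays, per the file headers. The deposited value table of the series holds log2-like values of 692 miRNAs, 636 matched by name; how it was normalized is not given in the sources used for this text, and it correlated with the scanner signal at r of 0.986 to 0.995. Labelling of 100 ng total RNA is as stated per the labels' protocols.

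Spots marked as outliers were left out, the spots of each of 1937 probes averaged, and every array divided by a 75th percentile, taken over the 220 probes that all arrays detected. Scaled values under -4.79 (log2) were raised to that floor, and the brightest probe stood for each miRNA. The 208 miRNAs detected on at least 4 arrays were tested by limma (version 3.58.1, R 4.3.3; lmFit, then eBayes) with slide as a fixed block and 95% intervals. Tests were two-sided, the F test apart, and the threshold was 0.05 on the Benjamini-Hochberg adjusted p. miR-122 has 2 probes. Single values were compared with exact permutation tests, two-sided, in scipy 1.17.1. Permutations within slides and of correlations were coded directly with numpy 2.4.6. Correlations had 100000 resamples, except within a single slide, where every order of its arrays was taken. The procedure was tested on simulated data.

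miRNAs named were miR-122, the 5 most and 3 least like it within groups, the 3 next in brightness, the 4 brightest tested liver parenchyma miRNAs and the brightest of each other list. miR-122 and all lists were chosen with earlier results of these data known, and the ratio tests after values had been seen. The files hold no mean signal, so normexp used the median signal. Arrays are separate mice per the labels. Only 4 middle dose arrays were analysed here. The number of arrays is one limit on the precision, and the choice of scaling is another.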

Additional observations from a re-analysis of the deposited data

Results flagged for a closer look

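Of 24 sets of values examined (6 measures of miR-122 in each of 4 groups), 1 held an array far from the others of its group: control replicate 1 had a scaled level of 6.82, and its gap to the next control was 0.735 of the range of the 5 controls. Chance alone marks about 1 set in 20. It was the only control on slide 1, and the low dose array of that slide, replicate 3, had a level of 6.83.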

How the results depend on the processing

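With the scaling used and all slides kept, no dose comparison of the level or share of miR-122 passed. Most of these differences were smaller than the shift between scalings, so their signs depended on the setting. No paired analysis was possible because the replicate numbers in the labels are all different between groups. Levels, trend and share are given first, by setting, where they changed sign or passed, as log2 differences unless another unit is named. With the percentile over all probes, middle and high dose minus control were -0.34 and -0.16, middle and high minus low dose -0.36 and -0.18, high minus middle 0.19, the mean of doses -0.16, the trend -0.0077 per mg/kg/day, and r with array signal -0.272. Without scaling, low, middle and high dose were -0.084, -0.43 and -0.60, middle and high minus low -0.35 and -0.52, the mean -0.37 and the trend -0.025 (limma adjusted p = 0.010). Relative to the median detected miRNA they were -0.12, -0.21 and -0.14, then -0.089 and -0.015, high minus middle 0.074, the mean -0.16 and the trend -0.0045. With array signal as a covariate, middle and high dose were -0.058 and -0.14, middle and high minus low -0.090 and -0.17, the mean -0.056 and the trend -0.0065. With normexp, middle dose was -0.093, middle and high minus low -0.15 and -0.042, high minus middle 0.11, the mean -0.0073, the trend -0.000385, and the share differed by -1.69 and -0.30 percentage points at the middle and high dose. With the labelling spike-ins, middle dose was -0.061, middle minus low -0.084 and high minus middle 0.23. With the total gene signal, low and middle dose were -0.0089 and -0.011, middle minus low -0.0019 and high minus middle 0.063. The dimmer probe gave -0.024 and -0.025 for middle and high minus low, and also without the array with no low-gain scan (chosen after seeing the data) -0.023 and -0.021, with high minus middle 0.0024. Quantile normalization, which leaves miR-122 only 2 possible values, gave -0.021 for high minus low and a trend of -0.000035. Slide and its row as blocks gave -0.00075 and -0.063 for middle and high minus low. Without slide 1, high dose was 0.32, high minus middle 0.18 and the trend 0.012 (adjusted p = 0.030), and without slide 2 high dose was -0.11, middle and high minus low -0.013 and -0.24 and the trend -0.0053. The mean of all probes gave -0.0067 for high minus low, and keeping outlier spots 0.038 for high minus middle. The deposited value table gave 0.30 for high dose, 0.078 for high minus middle and a trend of 0.012 (adjusted p = 0.014). The cause of these shifts was not tested.

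Leaving out each array in turn gave 0.035 to 0.17, 0.088 to 0.24 and 0.032 to 0.21 for the low, middle and high dose, -0.075 to 0.11 for high minus low, -0.11 to 0.082 for high minus middle and 0.0067 to 0.098 for middle minus low, and none passed. The ratio of miR-122 to miR-193 at the middle dose was -0.0041 with the dimmer probe, -0.10 with normexp and -0.042 to 0.067 with an array left out, and at the high dose 0.13 in the value table. For miR-101b the ratio ran from 0.41 to 0.55 at the middle and 0.29 to 0.48 at the high dose with an array left out, with adjusted p of 0.0476 to 0.0857. With the dimmer probe the ratio to miR-148a at the high dose, 0.31, passed (adjusted p = 0.0476), against 0.0571 with the brighter one. In the deposited value table the ratio to miR-148a differed by 0.14, 0.33 and 0.38 in order of dose and that to miR-101b by 0.24, 0.53 and 0.55, all with an adjusted p of 0.0476.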
